A study of Mus musculus with 20 samples.

Results

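The CD8 and cytotoxic effector genes are 10 genes, found by symbol among the 46983 genes of a raw count table: Cd8a, Cd8b1, Gzma, Gzmb, Gzmk, Prf1, Nkg7, Ifng, Eomes and Tbx21. Each symbol matched 1 row. RNA-seq was measured in 20 libraries from pancreatic tumours that grew for 2 weeks after cells of KPC lines, which are mouse pancreatic cancer lines, were injected into the pancreas of C57BL/6 mice. The 4 groups of 5 libraries were sorted IL33KO (leukocytes infiltrating tumours of IL33-/- hosts), sorted WT (the same from wild type hosts), bulk IL33KO (whole tumours of IL33-/- hosts) and bulk WT (whole tumours of wild type hosts). No group was treated, and leukocytes were taken with magnetic beads that bind CD45, the surface marker of nearly all blood-derived cells. The deletion was in the host in every IL33KO library, while the injected cells were KPC cells in all 4 groups. The labels name 5 hosts of each genotype but do not tie libraries to hosts, so p-values reflect variation from library to library, which may be partly technical.

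A CD8 T cell reads peptides presented on class I molecules, with CD8, a pair of chains encoded by Cd8a and Cd8b1, binding beside the T cell receptor. It kills by releasing granules: perforin (Prf1) opens a way into the target cell, granzymes (Gzma, Gzmb, Gzmk) are the proteases that follow, and Nkg7 is a membrane protein of the granule needed for its release. Interferon gamma (Ifng) is the cytokine that such cells secrete, and T-bet (Tbx21) and Eomesodermin (Eomes) are the T-box transcription factors that switch on these genes. Natural killer cells use the same granules without CD8, and some dendritic cells make the CD8 alpha chain, so no single member marks CD8 T cells alone.

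Because T-box and Runx factors are known regulators of these genes, RefSeq promoter windows (GRCm38.p6) were read for 9 of the 10 genes, from 250 bases before the start to 50 after it; Cd8b1 had no entry. The letters GGTGTGA, the core of the T-box site, and TGTGGT, the core of the Runx site, were searched on both strands, and no match of one overlapped a match of the other. The T-box letters stood in 2 of the 9 windows, Gzmk and Nkg7, against 3.98% of 32851 mouse promoter windows of 300 bases. The Runx letters stood in 4 of the 9, Gzma, Gzmb, Prf1 and Nkg7, against 16.8% of those windows. Gzmb held 2 matches, and Cd8a, Ifng, Eomes and Tbx21 held neither motif. The windows shown are the pair with a T-box match, the one with 2 Runx matches and, for contrast, that of Eomes, which held none. Capitals mark the matches, and each window is written 5′ to 3′ on the strand of its gene. Nkg7 is at chr7:43436888-43437187 (+ strand), Gzmk at chr13:113180916-113181215 (- strand), Gzmb at chr14:56262285-56262584 (- strand) and Eomes at chr9:118477939-118478238 (+ strand). A match says only that these letters are there.
Nkg7: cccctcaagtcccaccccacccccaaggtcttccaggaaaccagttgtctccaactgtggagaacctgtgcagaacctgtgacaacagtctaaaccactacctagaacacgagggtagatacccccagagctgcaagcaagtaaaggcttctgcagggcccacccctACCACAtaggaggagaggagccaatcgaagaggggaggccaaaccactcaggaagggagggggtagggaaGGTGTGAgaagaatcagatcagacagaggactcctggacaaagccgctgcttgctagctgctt
Gzmk: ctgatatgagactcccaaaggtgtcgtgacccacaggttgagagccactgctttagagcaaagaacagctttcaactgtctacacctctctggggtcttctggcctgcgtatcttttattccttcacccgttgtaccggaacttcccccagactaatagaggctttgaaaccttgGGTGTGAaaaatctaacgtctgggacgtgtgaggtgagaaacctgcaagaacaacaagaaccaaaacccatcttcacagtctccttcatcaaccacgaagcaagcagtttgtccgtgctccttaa
Gzmb: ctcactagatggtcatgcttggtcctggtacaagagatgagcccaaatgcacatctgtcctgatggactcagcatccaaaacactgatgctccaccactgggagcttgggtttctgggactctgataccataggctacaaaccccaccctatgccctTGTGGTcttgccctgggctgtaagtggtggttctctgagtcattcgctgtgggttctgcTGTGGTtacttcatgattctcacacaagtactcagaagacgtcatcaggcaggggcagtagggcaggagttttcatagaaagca
Eomes: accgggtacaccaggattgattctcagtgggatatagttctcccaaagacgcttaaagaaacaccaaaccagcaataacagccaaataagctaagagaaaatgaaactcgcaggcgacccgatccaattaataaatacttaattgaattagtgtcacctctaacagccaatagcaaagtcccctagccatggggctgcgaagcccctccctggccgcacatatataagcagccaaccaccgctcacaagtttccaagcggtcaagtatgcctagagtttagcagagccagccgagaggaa

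All 10 are protein-coding genes of the mm10 build (GENCODE M21 annotation). Cd8b1 (chr6:71322788-71337494) and Cd8a (chr6:71373427-71379173) lie next to each other on the plus strand of chromosome 6, and Gzma (chr13:113093825-113100981) and Gzmk (chr13:113171608-113225908) lie close together on the minus strand of chromosome 13. Prf1 (chr10:61297833-61304680) and Ifng (chr10:118441046-118445892) share chromosome 10. Gzmb lies at chr14:56258838-56262260, Nkg7 at chr7:43437073-43438249, Eomes at chr9:118478212-118486132 and Tbx21 at chr11:97098071-97115331. Eomes shares 118 exon bases with an antisense gene model, Gm33460, and Ifng shares 336 exon bases with Gm49751 on its own strand. The strand setting of the counting is not given in the sources used here. Whether reads in the bases that Eomes shares with its antisense partner were counted for Eomes is therefore not known. How reads in the bases that Ifng shares were counted is not known either. The granzymes are related proteases, and reads aligned to more than 1 place are in a summary row of the table, not in the count of any gene. The Gzmk start used for its window lies inside the longer span given by GENCODE.

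Counts assigned to genes came to 51.3 M to 81.0 M per library (M, mega; median 59.5 M), and 3 counts were worth 0.0326 to 0.0686 CPM (counts per M counts in genes, after scaling of library sizes). Every member was counted in every library. Il33 itself was counted in all IL33KO libraries, at 17.6 ± 4.73 CPM in sorted IL33KO libraries against 12.8 ± 5.48 CPM in sorted WT libraries, and at 46.1 ± 7.18 CPM in bulk IL33KO tumours against 57.7 ± 5.17 CPM in bulk WT tumours (SD, n = 5 each). Counts per gene do not show which exons were read, so Il33 is no check of the genotype labels. Leukocyte genes followed the labels: those of all leukocytes (Ptprc and 9 others) summed to 7854 to 10372 CPM in sorted IL33KO and 7658 to 10649.9 CPM in sorted WT libraries, against 705 to 1417 CPM in bulk IL33KO and 618 to 1395 CPM in bulk WT tumours. Tumour epithelium genes (6, such as Krt8) remained in sorted material, at 1546 to 2346 CPM in IL33KO and 895 to 2230 CPM in WT. In bulk they summed to 5099 to 7530 CPM in IL33KO and 6128 to 7890 CPM in WT. Digestive enzyme genes of acinar cells were uneven, at 46856 CPM in sorted IL33KO 3 against 729 to 8054 CPM in the other 9 sorted libraries, and at 9730 CPM in bulk WT 5 against 24.8 to 1842 CPM in the other 9 bulk libraries.

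Per kilobase of exon, Gzma and Nkg7 had the highest mean levels in each group. Eomes had the lowest mean in sorted IL33KO, sorted WT and bulk IL33KO material, while in bulk WT tumours Tbx21 at 1.11 CPM per kilobase was below Eomes at 1.19. In sorted WT libraries mean levels per kilobase ran in the order Gzma at 329.7, Nkg7 at 228, Gzmb at 117, Cd8a at 55.7, Cd8b1 at 54.0, Ifng at 24.1, Gzmk at 13.95, Tbx21 at 11.7, Prf1 at 9.41 and Eomes at 1.73 CPM per kilobase. In sorted IL33KO libraries Nkg7 at 207 CPM per kilobase was ahead of Gzma at 195, and Eomes was again last at 2.37. The spread between libraries, as the highest level over the lowest, was widest for Gzmb in sorted IL33KO libraries (5.76 times, followed by Cd8a at 4.03) and sorted WT libraries (7.82 times, followed by Gzma at 4.58). In bulk it was widest for the same pair of granzymes: the highest bulk IL33KO tumour had 20.6 times the Gzma of the lowest, and the highest bulk WT tumour had 18.0 times the Gzmb of the lowest. By this measure Eomes varied least among sorted IL33KO libraries (1.83 times), sorted WT libraries (1.97 times) and bulk WT tumours (1.53 times), while among bulk IL33KO tumours it varied by 2.57 times and Prf1 by 1.89 times.

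**Figure D1:**
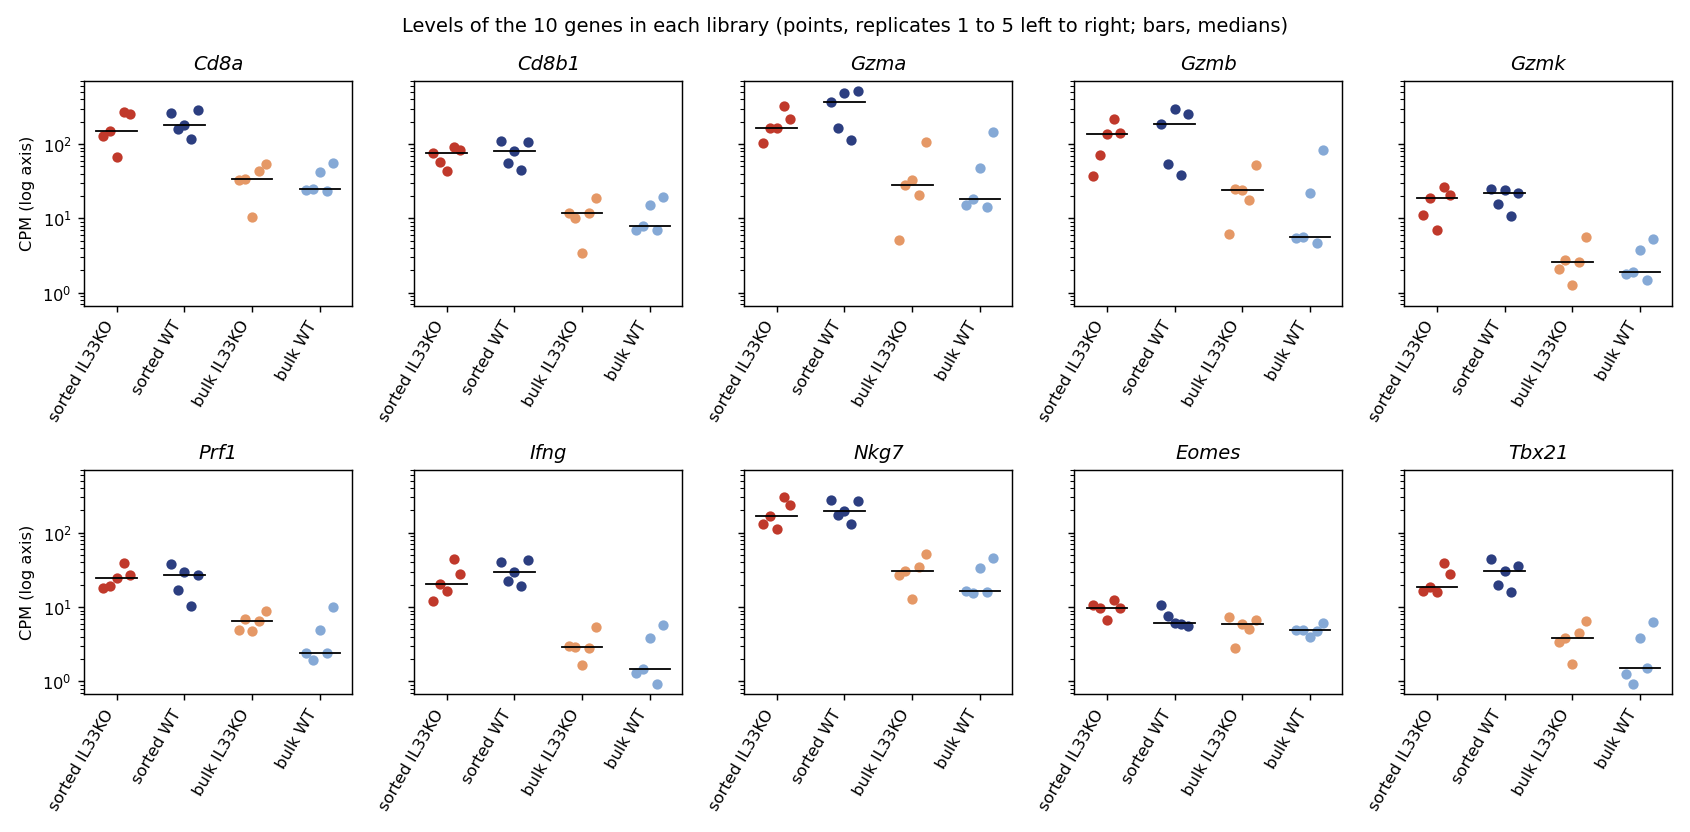
CPM of each of the 10 genes (log axis, one panel per gene) in the 5 libraries of each group, with points for libraries and bars for group medians. Sorted libraries sit above bulk tumours without overlap in both genotypes for all genes but Gzma, Gzmb and Eomes, and IL33KO and WT points overlap in every panel.

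The first question was whether the host's lack of IL-33 went with a different level of these genes in the tumour's leukocytes. None of the 10 passed between sorted IL33KO and sorted WT libraries in edgeR's quasi-likelihood test with Benjamini-Hochberg adjustment at 0.05 (adjusted p = 0.397 to 0.938), and none had an unadjusted p under 0.05. With DESeq2, and with limma's voom method weighting samples by quality, 0 of the 10 were called too. The background was low, with 2 of 16731 genes tested called (0.012%) and 2156 at an unadjusted p under 0.05; DESeq2 called 566 genes and voom 400. All 10 genes overlapped between genotypes, while 3.69% of genes did not. Log2 differences ran from −0.74 to 0.47, with 8 of 10 negative and a median of −0.20, beside a median of 0.02 over all genes tested. The 8 negative signs were not stable to the method: with voom 3 of the 10 were negative. Without sorted IL33KO 3 and sorted WT 3, a pair chosen after seeing the data because they stood apart in earlier work, edgeR again called 0 of the 10, with Gzma at −0.51 and Eomes at 0.51. Markers of macrophages (8 genes, all with negative log2 differences) did not overlap in their sum, at 6201 to 9868 CPM in sorted IL33KO and 10430.2 to 12718 CPM in sorted WT libraries, with 0 of the 8 called. Their part in the members' values was not tested.

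The CD8 chains varied as much within a genotype as between genotypes. Cd8a stood at 129.5, 151, 67.7, 273 and 257 CPM in sorted IL33KO libraries 1 to 5, against 263, 159.8, 183, 116 and 292 CPM in sorted WT libraries 1 to 5. Sorted IL33KO 3 was the lowest of all 10 libraries, and each genotype held 2 of the 4 highest libraries. The log2 difference was −0.20 ± 0.38 (SE; 95% interval −1.03 to 0.63; adjusted p = 0.866). Cd8b1 had 74.8, 56.9, 43.3, 91.9 and 83.3 CPM in sorted IL33KO libraries 1 to 5, against 112, 55.2, 79.9, 45.3 and 108 CPM in sorted WT libraries 1 to 5. The lowest value was again sorted IL33KO 3, followed by sorted WT 4, and the groups overlapped. The difference for Cd8b1 was −0.18 ± 0.28 on the log2 scale (adjusted p = 0.827).

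Among granule genes, Gzma, a granzyme of killer cells with trypsin-like activity, had the largest difference in means. Gzma read 104, 165, 166, 327 and 221 CPM in sorted IL33KO libraries 1 to 5, against 374, 164, 494, 112 and 514 CPM in sorted WT libraries 1 to 5. The WT group was split, with 3 libraries (1, 3 and 5) above every IL33KO library and 2 (2 and 4) among or below the lower IL33KO values. The log2 difference was −0.74 ± 0.44 (95% interval −1.73 to 0.24; adjusted p = 0.515). Gzmb, the granzyme that cleaves caspases in the target, spread even more. Gzmb was at 37.7, 70.8, 135, 217 and 141 CPM in sorted IL33KO libraries 1 to 5, against 189, 53.2, 301, 38.5 and 257 CPM in sorted WT libraries 1 to 5. The highest library was sorted WT 3 and the lowest sorted IL33KO 1, and the log2 difference of −0.46 had an SE of 0.64 and an interval of −1.91 to 0.99 (adjusted p = 0.809). Gzmk, a granzyme found in less differentiated CD8 T cells, was much lower in CPM. Gzmk measured 11.1, 18.7, 6.91, 26.3 and 20.6 CPM in sorted IL33KO libraries 1 to 5, against 24.8, 15.7, 23.9, 10.8 and 21.8 CPM in sorted WT libraries 1 to 5. Sorted IL33KO 3 was lowest for Gzmk although it was in the middle of the range for Gzma and Gzmb, and the log2 difference was −0.20 ± 0.34 (adjusted p = 0.848).

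Perforin and Nkg7 had smaller differences. Prf1 stood at 17.9, 19.4, 24.8, 39.0 and 27.1 CPM in sorted IL33KO libraries 1 to 5, against 37.5, 17.0, 29.6, 10.5 and 27.0 CPM in sorted WT libraries 1 to 5. The log2 difference for Prf1 was 0.09 ± 0.33 (adjusted p = 0.938), and the highest and the lowest library were sorted IL33KO 4 and sorted WT 4. Nkg7 had 132, 168, 112, 301 and 234 CPM in sorted IL33KO libraries 1 to 5, against 275, 175, 196, 130.3 and 268 CPM in sorted WT libraries 1 to 5. The highest and the lowest library for Nkg7 were sorted IL33KO 4 and sorted IL33KO 3, and it differed by −0.13 ± 0.29 on the log2 scale (95% interval −0.77 to 0.51; adjusted p = 0.887).

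The cytokine gene Ifng overlapped between genotypes, although sorted IL33KO 1 and 3 lay below every sorted WT library. Ifng reached 11.9, 20.2, 16.3, 44.0 and 28.3 CPM in sorted IL33KO libraries 1 to 5, against 41.0, 22.3, 29.9, 19.4 and 43.5 CPM in sorted WT libraries 1 to 5. The top library was sorted IL33KO 4 and the lowest sorted IL33KO 1, both from the same genotype. Its log2 difference was −0.36 ± 0.35 (95% interval −1.14 to 0.42; adjusted p = 0.711).

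The T-box factors had differences of opposite sign in edgeR, and neither passed. Tbx21 stood at 16.3, 18.6, 16.2, 39.5 and 28.3 CPM in sorted IL33KO libraries 1 to 5, against 43.8, 19.8, 30.4, 16.0 and 36.1 CPM in sorted WT libraries 1 to 5. T-bet transcript spanned a similar range in both genotypes, with a log2 difference of −0.29 ± 0.33 (adjusted p = 0.757). Eomes was at 10.7, 9.78, 6.77, 12.4 and 9.70 CPM in sorted IL33KO libraries 1 to 5, against 10.8, 7.53, 6.07, 6.01 and 5.49 CPM in sorted WT libraries 1 to 5. All 5 IL33KO libraries exceeded the WT median, though sorted WT 1 at 10.8 CPM lay among the IL33KO values. The log2 difference of 0.47 ± 0.21 (95% interval −0.01 to 0.94) did not pass (edgeR unadjusted p = 0.0528, adjusted p = 0.397; two-sided exact permutation p = 0.0714, of which the smallest possible is 0.00794).

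**Figure D2:**
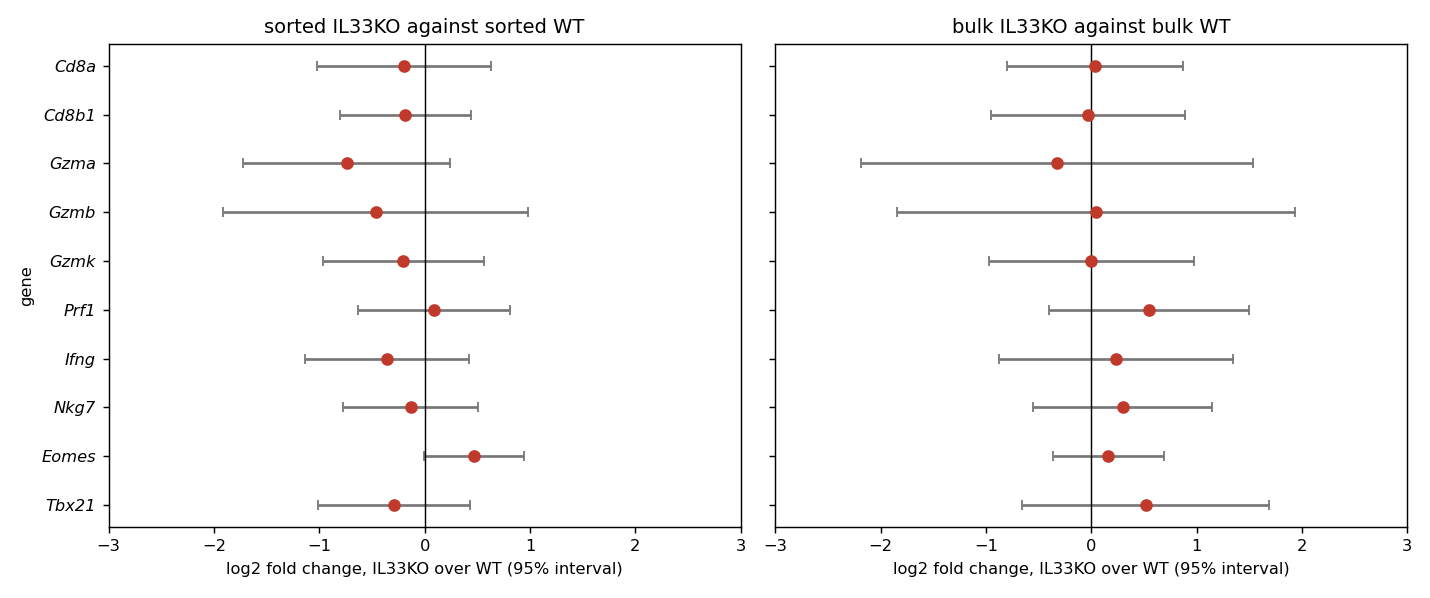
Log2 fold change of IL33KO over WT for the 10 genes in sorted leukocytes (left) and bulk tumours (right), as points with 95% intervals from edgeR. The 20 intervals all span 0, and the widest are those of Gzma and Gzmb in bulk tumours.

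In bulk tumours, too, none of the 10 genes passed between genotypes in edgeR (adjusted p = 0.735 to 0.999), and none had an unadjusted p under 0.05. No gene of 17258 tested was called (0%), with 1098 at an unadjusted p under 0.05, and DESeq2 called 50 genes and 0 of the 10. Every member overlapped between genotypes, while 0.661% of genes did not. The log2 differences ran from −0.33 for Gzma to 0.55 for Prf1, with a median of 0.10 beside 0.01 over all genes. In bulk samples, fewer cells of a type and less RNA per cell cannot be told apart.

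Cd8a stood at 33.3, 33.4, 10.6, 43.9 and 53.8 CPM in bulk IL33KO libraries 1 to 5, against 24.0, 25.2, 41.5, 23.2 and 54.9 CPM in bulk WT libraries 1 to 5. Cd8b1 had 11.8, 9.98, 3.41, 11.7 and 18.6 CPM in bulk IL33KO libraries 1 to 5, against 6.90, 7.90, 15.2, 6.88 and 19.4 CPM in bulk WT libraries 1 to 5. For both CD8 chains, tumours IL33KO 5 and WT 5 were highest and IL33KO 3 was lowest, and the log2 differences were 0.04 ± 0.38 for Cd8a and −0.04 ± 0.42 for Cd8b1.

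The granzymes were dominated by the same pair of tumours. Gzma read 5.17, 27.9, 33.01, 20.5 and 106 CPM in bulk IL33KO libraries 1 to 5, against 15.2, 18.1, 47.9, 14.1 and 147 CPM in bulk WT libraries 1 to 5. WT 5 and IL33KO 5 stood far above the next tumour of their genotype, and the log2 difference of −0.33 had an SE of 0.84. Gzmb was at 6.12, 24.8, 23.9, 17.8 and 52.1 CPM in bulk IL33KO libraries 1 to 5, against 5.39, 5.54, 21.9, 4.63 and 83.5 CPM in bulk WT libraries 1 to 5. Bulk WT 1, 2 and 4 lay close together and below all 5 IL33KO tumours, while WT 5 was the highest of all, and the log2 difference was 0.04 ± 0.85. Gzmk measured 2.10, 2.76, 1.27, 2.62 and 5.55 CPM in bulk IL33KO libraries 1 to 5, against 1.79, 1.90, 3.78, 1.47 and 5.23 CPM in bulk WT libraries 1 to 5. Gzmk differed by −0.00114 ± 0.44, with the same pair at the top.

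Prf1 stood at 4.88, 6.94, 4.70, 6.48 and 8.90 CPM in bulk IL33KO libraries 1 to 5, against 2.45, 1.92, 4.95, 2.38 and 9.96 CPM in bulk WT libraries 1 to 5. Nkg7 had 27.3, 30.8, 12.8, 34.3 and 52.0 CPM in bulk IL33KO libraries 1 to 5, against 16.5, 15.6, 33.3, 16.0 and 45.2 CPM in bulk WT libraries 1 to 5. Prf1 was lowest in bulk WT 1, 2 and 4, Nkg7 in bulk IL33KO 3 followed by those 3 tumours, and their log2 differences were 0.55 ± 0.43 and 0.30 ± 0.39. Ifng reached 3.03, 2.87, 1.64, 2.85 and 5.45 CPM in bulk IL33KO libraries 1 to 5, against 1.28, 1.48, 3.86, 0.934 and 5.80 CPM in bulk WT libraries 1 to 5. Tbx21 had 3.37, 3.87, 1.70, 4.53 and 6.48 CPM in bulk IL33KO libraries 1 to 5, against 1.24, 0.917, 3.80, 1.50 and 6.34 CPM in bulk WT libraries 1 to 5. For both Ifng and Tbx21, all 5 IL33KO tumours exceeded the WT median. WT 5 was above every IL33KO tumour for Ifng and below IL33KO 5 alone for Tbx21, and the differences were 0.23 ± 0.50 and 0.52 ± 0.53. Eomes was at 7.27, 2.83, 5.87, 5.03 and 6.78 CPM in bulk IL33KO libraries 1 to 5, against 4.85, 4.96, 4.01, 4.70 and 6.12 CPM in bulk WT libraries 1 to 5. Eomes was the exception in its order, since bulk IL33KO 1 was highest and IL33KO 2 lowest, and it differed by 0.16 ± 0.24.

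The bulk result differed between methods. With limma voom and sample quality weights, 5 of the 10 passed, all higher in IL33KO: Gzmb by 1.66 (adjusted p = 0.0302), Prf1 by 1.27 (adjusted p = 0.00830), Ifng by 1.09 (adjusted p = 0.0300), Nkg7 by 0.78 (adjusted p = 0.0407) and Tbx21 by 1.44 (adjusted p = 0.0138), on the log2 scale. That fit gave bulk WT 1 a weight of 6.09 and bulk WT 5 a weight of 0.218. It called 3371 of the 17258 genes tested, in either direction. The voom fit differs from edgeR in both the model and the weights, which were not tested apart. Most genes of several cell type lists also had positive estimates in edgeR for bulk IL33KO against bulk WT tumours, with 0 called: 10 of 10 genes of all leukocytes (median log2 difference 0.27), 12 of 12 of the T cell receptor complex (0.19), 8 of 9 of natural killer cells (0.72), 8 of 8 of B cells (1.28), 8 of 8 of macrophages (0.29) and 7 of 7 of fibroblasts (0.96) were positive, while 7 of 7 of acinar cells were negative (−2.12). With the level of the leukocyte list as a covariate in edgeR, 6 of the 10 members were negative, against 3 without it. With the Cd3 genes as the covariate instead, 4 of the 10 were negative, and log2 differences ran from −0.30 to 0.56. The part of these cells in the voom calls was not tested. Without bulk WT 5, edgeR still called 0 of the 10, and 19 of all genes.

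Whether the genotype difference itself differed between leukocytes and bulk tumours was tested as an interaction over all 20 libraries. None of the 10 passed in edgeR (adjusted p = 0.595 to 0.911), none had an unadjusted p under 0.05, and neither DESeq2 nor voom called any of the 10. Of all 18145 genes 0 (0%) passed in edgeR, where 2028 had an unadjusted p under 0.05, against 4 with DESeq2 and 3406 with voom. The interaction ran from −0.83 for Tbx21 to 0.28 for Eomes on the log2 scale and was negative for 9 of the 10. Leaving out sorted IL33KO 3 or sorted WT 5 gave 1 gene in edgeR, and leaving out bulk WT 5 gave 27, with 0 of the 10 in each case.

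The second comparison was between sorted leukocytes and bulk tumours, which asks how far the transcripts of these genes were concentrated in the material sorted by CD45. All 10 genes were called higher in sorted leukocytes in both genotypes, where 31.3% of 18145 genes were called higher in IL33KO and 33.7% in WT. In 7 of the 10 the groups did not overlap in either genotype, against 24.6% of genes higher without overlap in IL33KO and 26.2% in WT; Gzma, Gzmb and Eomes overlapped. The median log2 difference of the 10 was 2.45 in IL33KO and 2.78 in WT, against 0.02 in IL33KO and −0.003 in WT over all genes. It was 2.80 in IL33KO and 3.06 in WT for 12 genes of the T cell receptor complex, and 3.14 in IL33KO and 3.39 in WT for the 10 genes of all leukocytes.

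Ifng had the largest difference: sorted leukocytes held 7.61 times the bulk level in IL33KO (log2 2.93 ± 0.49) and 11.7 times in WT (3.54 ± 0.50). Tbx21 stood at 5.95 times the bulk level in IL33KO and 10.6 times in WT. On the log2 scale Cd8a and Cd8b1 rose by 2.33 and 2.66 in sorted IL33KO leukocytes, and by 2.59 and 2.83 in sorted WT leukocytes. Of the granule genes, Nkg7 rose by 2.59 in IL33KO and 3.04 in WT, Gzmk by 2.55 in IL33KO and 2.77 in WT, and Prf1 by 2.01 in IL33KO and 2.49 in WT. Gzma rose by 2.35 ± 0.76 in IL33KO (adjusted p = 0.0123) and 2.77 ± 0.77 in WT (adjusted p = 0.00413). Gzmb rose by 2.27 ± 0.84 in IL33KO (adjusted p = 0.0264) and 2.79 ± 0.86 in WT (adjusted p = 0.00822). The IL33KO call for Gzmb was lost without sorted IL33KO 4 (1.95, adjusted p = 0.0641), without bulk IL33KO 1 (2.02, adjusted p = 0.0589) and without bulk IL33KO 4 (2.17, adjusted p = 0.0561).

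Eomes had the smallest difference between materials. It stood at 1.77 times the bulk level in sorted IL33KO leukocytes (log2 0.83 ± 0.23, adjusted p = 0.00463) and 1.46 times in sorted WT leukocytes (0.54 ± 0.23, adjusted p = 0.0461). The WT call was fragile. It was lost with RLE size factors (0.53, adjusted p = 0.0509), without a filter on low counts (0.53, adjusted p = 0.0675) and with the replicate number as a block (0.51, adjusted p = 0.0831). It was also lost on leaving out any one of sorted IL33KO 1, 2 or 5, sorted WT 1 or 2, bulk IL33KO 3 or 4, or bulk WT 1, 2, 3 or 4, with values of 0.35 (without sorted WT 1, adjusted p = 0.181) to 0.54 and adjusted p of 0.0520 and above.

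The ratio of the T-box factor transcripts differed between materials, which restates the unlike rises of Eomes and Tbx21 given above. Which cells held either transcript was not tested. The log2 ratio of Eomes to Tbx21 CPM was −0.60, −0.92, −1.25, −1.67 and −1.54 in sorted IL33KO libraries 1 to 5, against 1.10, −0.45, 1.77, 0.15 and 0.07 in bulk IL33KO libraries 1 to 5. It was −2.01, −1.39, −2.32, −1.41 and −2.71 in sorted WT libraries 1 to 5, against 1.93, 2.40, 0.08, 1.63 and −0.05 in bulk WT libraries 1 to 5. Every sorted library was below every bulk tumour of its genotype. The ratio averaged −1.20 ± 0.44 in sorted and 0.53 ± 0.89 in bulk IL33KO material, and −1.97 ± 0.58 in sorted and 1.20 ± 1.12 in bulk WT material (SD, n = 5 each). The differences of −1.73 in IL33KO and −3.17 in WT each had a two-sided exact permutation p of 0.00794, the smallest that 5 against 5 allows; this comparison was chosen after the values were seen. The lowest Tbx21 level in bulk was 0.917 CPM, in bulk WT 2, while Eomes in bulk was never under 2.83 CPM.

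**Figure D3:**
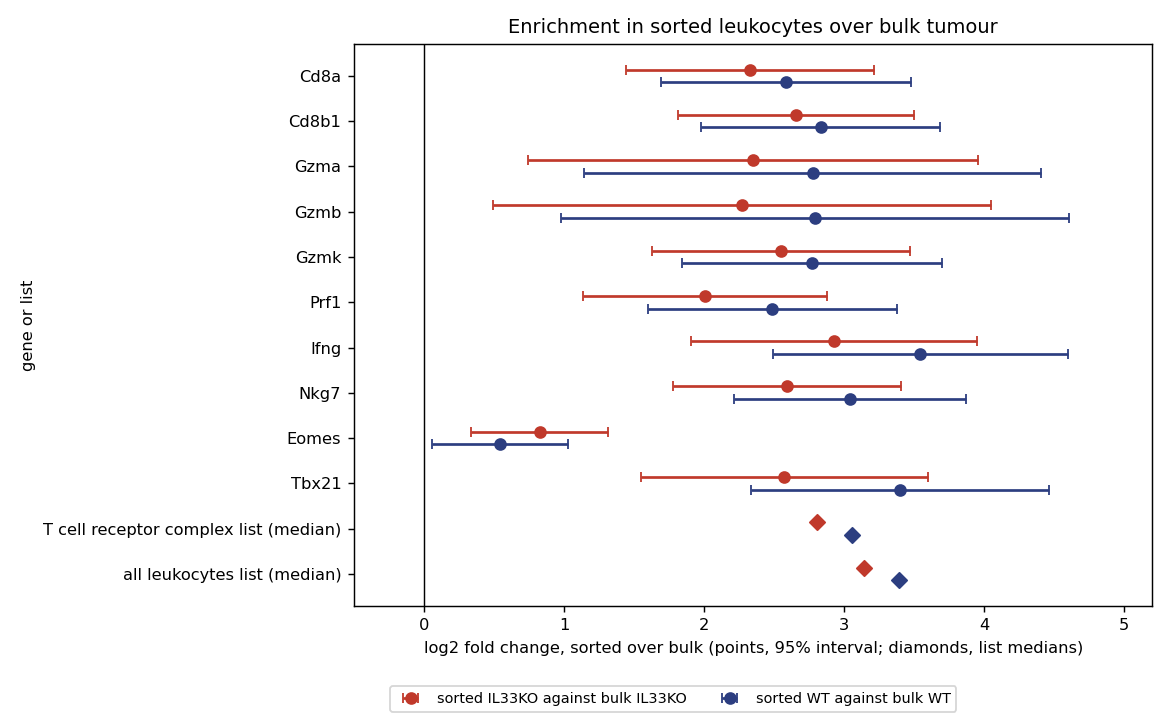
Log2 fold change of sorted leukocytes over bulk tumours for the 10 genes within IL33KO and within WT (points with 95% intervals from edgeR), with the medians of 2 lists as diamonds. Eomes, at 0.83 in IL33KO and 0.54 in WT, lies to the left of the other 9 genes, which lie between 2.01 and 3.54.

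Ratios within a library ask whether CD8 T cell genes shifted against each other between genotypes. The 6 ratios in 2 materials made 12 exact permutation tests (two-sided, n = 5 against 5, smallest possible p = 0.00794), and none passed after adjustment over the 12 (adjusted p = 0.667 to 1). The log2 ratio of Cd8a to Cd4 was 0.51 ± 0.54 in sorted IL33KO and 0.75 ± 0.46 in sorted WT libraries (SD), and 1.35 ± 0.53 in bulk IL33KO and 1.48 ± 0.31 in bulk WT libraries. Cd8a to Cd3e, a chain of the T cell receptor complex, came to 1.19 ± 0.22 in sorted IL33KO and 1.35 ± 0.17 in sorted WT libraries. Cd8b1 to Cd8a was −1.21 ± 0.46 in sorted IL33KO and −1.35 ± 0.14 in sorted WT libraries. In sorted IL33KO libraries 1 and 3 this ratio was −0.79 and −0.64, above all 18 other libraries.

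The effector ratios spread widely within each genotype. The log2 ratio of Gzmb to Cd8a ran from −1.78 to 0.99 in sorted IL33KO and from −1.59 to 0.72 in sorted WT libraries, and the difference in means was 0.01. In bulk tumours the same ratio averaged −0.61 ± 1.36 in IL33KO and −1.39 ± 1.25 in WT (difference 0.78, exact p = 0.373, adjusted p = 0.762). Among sorted libraries, the ratio of Gzmb to Cd8a was highest in number 3 of both genotypes. These sorted libraries had the most acinar transcript of their group and, in IL33KO, the least Cd8a. The part of acinar transcript in the ratio was not tested. Among bulk tumours the ratio was highest in IL33KO 3 (1.18) and WT 5 (0.61). Gzmk to Gzmb was −2.75 ± 1.01 in sorted IL33KO and −2.75 ± 0.91 in sorted WT libraries, and −2.97 ± 0.97 in bulk IL33KO and −2.25 ± 1.06 in bulk WT tumours (bulk difference −0.72, exact p = 0.262, adjusted p = 0.762). The smallest p of the 12 was that of Eomes to Tbx21 in sorted leukocytes, with a difference of 0.77 on the log2 scale (exact p = 0.0556, adjusted p = 0.667). In bulk tumours this ratio had the opposite sign, a difference of −0.67 (exact p = 0.302, adjusted p = 0.762). Without sorted WT 2 the sorted difference was 0.91 and without sorted WT 4 also 0.91, each with an exact p of 0.0397 before adjustment. Over all runs that left out 1 library, the difference was as low as 0.58. The exact p before adjustment was as high as 0.111.

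**Figure D4:**
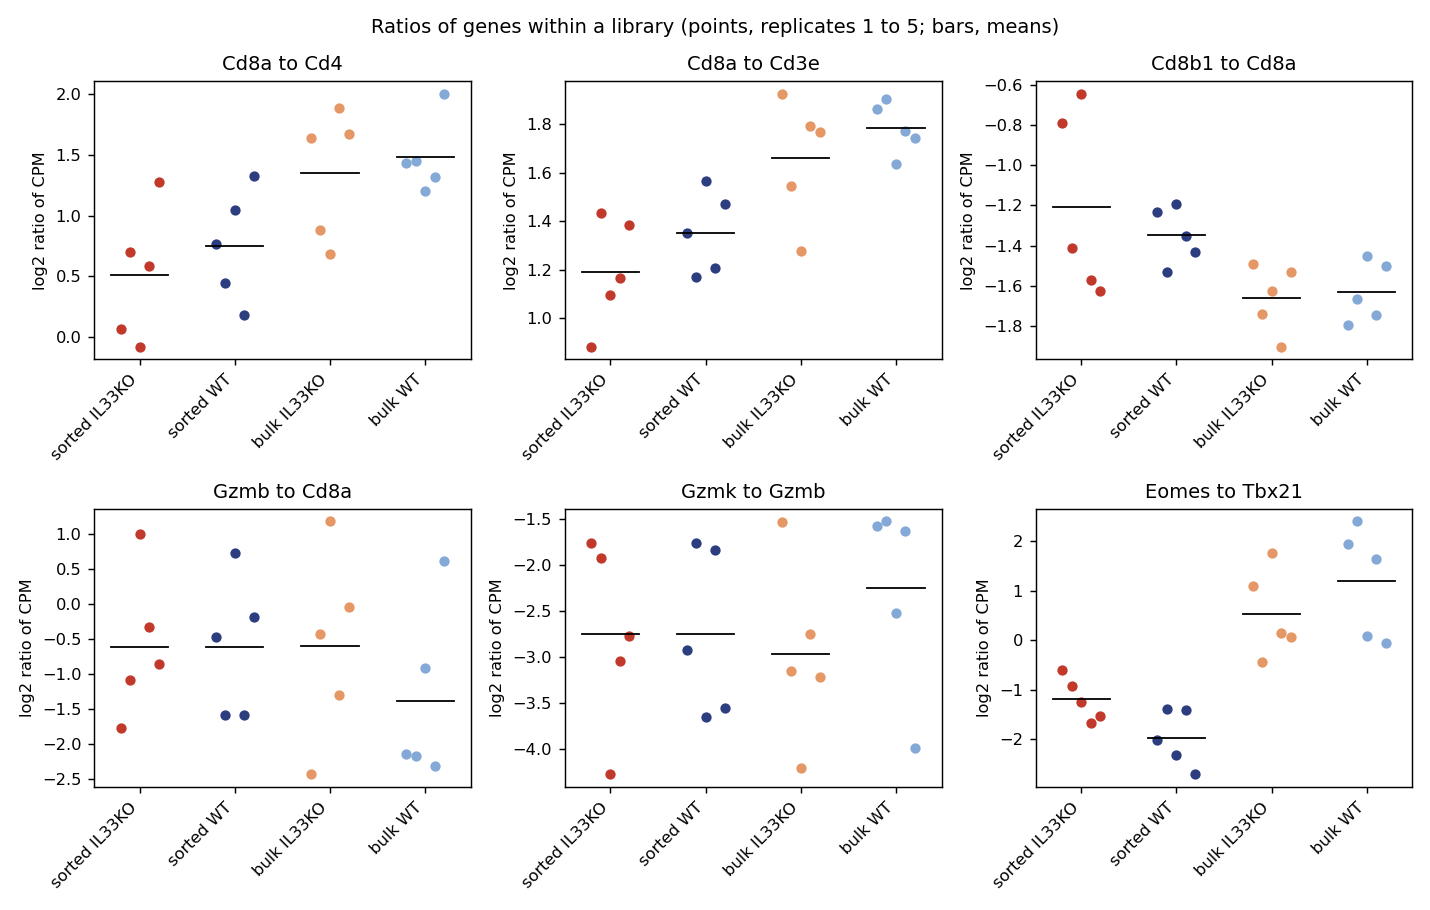
Log2 ratios of 6 pairs of genes within each library (points, libraries 1 to 5 of each group from left to right; bars, group means). Groups of the 2 genotypes overlap in each panel, and the Eomes to Tbx21 ratio separates sorted leukocytes (−2.71 to −0.60) from bulk tumours (−0.45 to 2.40).

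Apart from Eomes, the members tended to be high and low together from library to library, though less so the CD8 chains with Gzma and Gzmb. Over the 10 sorted libraries, pairwise Pearson r of log2 CPM had a median of 0.78 and ran from −0.16 to 0.96, and over the 10 bulk libraries it ran from 0.03 to 0.98, the highest being Cd8a with Cd8b1; the lowest in both were pairs with Eomes. Among pairs without Eomes, Cd8a in bulk had an r of 0.43 with Gzma and 0.47 with Gzmb. For Cd8b1 in bulk these were 0.47 and 0.51, and Cd8a with Gzmb in sorted libraries was at 0.54. All these r describe 10 libraries that share composition and depth. Among sorted libraries IL33KO 4 was in the top 3 for 9 of the 10 genes, WT 1 for 9 and WT 5 for 7, while WT 4 was in the bottom 3 for 10, IL33KO 1 for 8 and IL33KO 3 for 6. Among bulk tumours IL33KO 5 and WT 5 were in the top 3 for all 10 genes, while WT 4 was in the bottom 3 for all 10, WT 1 for 8, WT 2 for 5 and IL33KO 3 for 4. High libraries came from both genotypes in both materials, as did low sorted libraries, and low bulk tumours were mostly WT.

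The general T cell level was uneven too. Mean log2 CPM of the Cd3 genes was highest in sorted IL33KO 4 (7.22), WT 1 (7.08) and WT 5 (7.05). It was lowest in sorted IL33KO 3 (5.57) and WT 4 (6.04). The order was not that of the members throughout. Sorted IL33KO 1, in the bottom 3 for 8 of the 10 genes, had a Cd3 mean of 6.53. Sorted IL33KO 2, in the bottom 3 for 0 of them, had 6.17. In bulk the Cd3 mean was highest in IL33KO 5 (4.49) and WT 5 (4.46) and lowest in IL33KO 3 (2.72) and WT 4 (2.82). The 12 genes of the T cell receptor complex summed to 618 to 1445 CPM in sorted IL33KO and 671 to 1415 CPM in sorted WT libraries, and to 128 to 285 CPM in bulk IL33KO and 80.5 to 299 CPM in bulk WT tumours. Natural killer cell genes were 9, led by Klre1 and Klrb1c, receptors of those cells. These 9 summed to 38.8 to 79.8 CPM in sorted IL33KO and 30.2 to 72.3 CPM in sorted WT libraries. Sums of lists with different genes do not show which cell type was more abundant. Of those 9, Ncr1 averaged 4.505 ± 1.07 CPM in sorted IL33KO and 3.52 ± 1.93 CPM in sorted WT libraries (SD, n = 5 each), and Klra8 alone was at 0 in any library (2 of 20). Neither list had a gene called between genotypes, and their part in the members' spread was not tested. Bulk WT 5, the highest bulk tumour for 6 of the 10 genes, was also the one with 9730 CPM of acinar transcripts, while IL33KO 5 had 174 CPM.

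**Figure D5:**
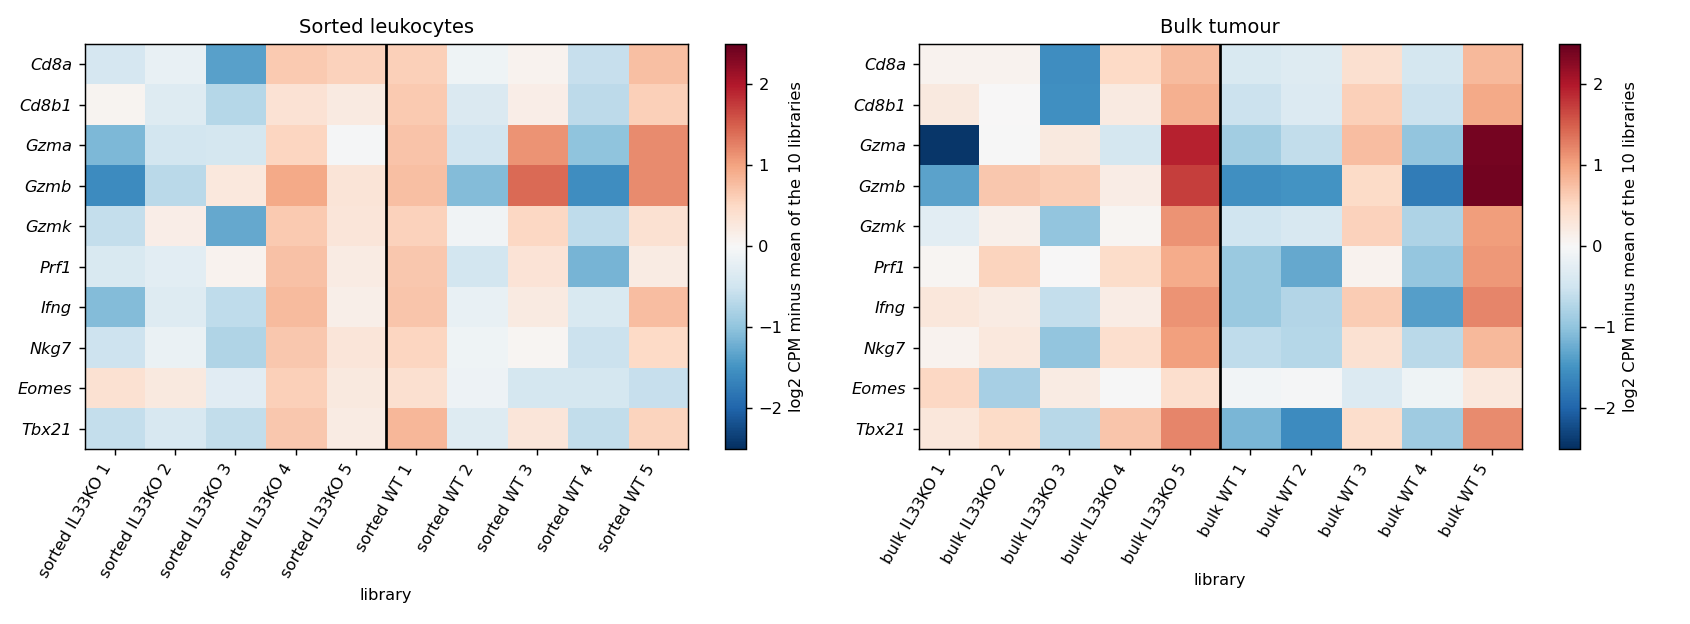
Log2 CPM of each gene (rows) in each library (columns), as the difference from the gene's mean over the 10 libraries of the same material, with sorted leukocytes on the left and bulk tumours on the right. Columns such as sorted IL33KO 4, bulk IL33KO 5 and bulk WT 5 are high, and sorted WT 4 and bulk WT 4 low, across most rows.

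The genes with the most similar pattern to the mean of the 10 differed by material. Among 10398 genes averaging 5 CPM or more in sorted libraries, Cd160 (Pearson r = 0.97), Icos (0.97), Fasl (0.96), Cxcr6 (0.96) and Sytl3 (0.95) were closest over 10 libraries. Cd160 and Icos encode receptors of activated T cells, Fasl the ligand of a death receptor, and Cxcr6 a chemokine receptor. Among 10608 such genes in bulk tumours, Fth1 (0.99), Vav1 (0.99), Ctsw (0.98) and Lcp2 (0.98) were among the closest. Vav1 and Lcp2 signal below antigen receptors, Ctsw is a cathepsin of cytotoxic cells and Fth1 is the ferritin heavy chain.

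The wider pathway was read from lists of related genes, and none had a gene called between genotypes in either material by edgeR. Of 12 other cytotoxic granule genes, 9 of 12 had positive log2 differences in sorted IL33KO against sorted WT libraries (median 0.15). Srgn, the proteoglycan that packs granule proteins, had 1226 ± 204 CPM in sorted IL33KO and 1489.8 ± 261 CPM in sorted WT libraries (SD, n = 5 each; log2 −0.27), and Ctsw had 62.3 ± 26.2 CPM in sorted IL33KO and 66.0 ± 22.9 CPM in sorted WT libraries (log2 −0.07). Cst7, a cysteine protease inhibitor of the granule, had 42.0 ± 14.1 CPM in sorted IL33KO and 47.5 ± 16.6 CPM in sorted WT libraries. Serpinb9, an inhibitor of granzyme B, had 59.0 ± 9.37 CPM in sorted IL33KO and 53.6 ± 13.7 CPM in sorted WT libraries.

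Against bulk tumours, 5 of these 12 were called higher in sorted leukocytes in both genotypes (Gzmm, Ctsw, Cst7, Srgn and Fasl) and 2 lower (Gzme and Serpinb9). Gzme fell by 2.46 in sorted IL33KO leukocytes and by 2.23 in sorted WT leukocytes on the log2 scale. Of its neighbours in the granzyme cluster, named after their values were seen, Gzmd, Gzmf and Gzmg had the same sign without passing and Gzmc the opposite sign, also without passing. Gzmg averaged 1.62 CPM in sorted IL33KO libraries against 19.1 CPM in bulk IL33KO tumours (adjusted p = 0.0504), and 0.818 CPM in sorted WT libraries against 5.94 CPM in bulk WT tumours (adjusted p = 0.101). The members Gzma, Gzmb and Gzmk were all higher in sorted leukocytes.

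Regulators and receptors of effector CD8 T cells (12 genes) were all called higher in sorted leukocytes than in bulk, in both genotypes. Between genotypes in sorted leukocytes 7 were positive and 5 negative (median 0.01). Ccl5, a chemokine that effector T cells release, had 246 ± 81.4 CPM in sorted IL33KO and 326 ± 111 CPM in sorted WT libraries (log2 −0.39). The transcriptional regulator Id2 had 209 ± 31.4 CPM in sorted IL33KO and 192 ± 17.1 CPM in sorted WT libraries. Il2rb, the beta chain that the receptors of interleukin 2 and 15 share, had 149.6 ± 43.0 CPM in sorted IL33KO and 141 ± 45.4 CPM in sorted WT libraries. Cx3cr1, a chemokine receptor also made by macrophages, had 141 ± 25.1 CPM in sorted IL33KO and 161 ± 22.2 CPM in sorted WT libraries.

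Inhibitory receptors and other exhaustion genes (8) had a median of 0.02 between genotypes in sorted leukocytes. The checkpoint receptor gene Pdcd1 had 73.5 ± 32.6 CPM in sorted IL33KO and 69.4 ± 19.0 CPM in sorted WT libraries, and Lag3 had 153 ± 50.4 CPM in sorted IL33KO and 159.8 ± 25.8 CPM in sorted WT libraries. Entpd1, an ectonucleotidase, had 239 ± 36.5 CPM in sorted IL33KO and 279.9 ± 41.0 CPM in sorted WT libraries, and Cxcr6 had 69.4 ± 36.6 CPM in sorted IL33KO and 74.6 ± 22.3 CPM in sorted WT libraries. All 8 were called higher in sorted leukocytes than in bulk in both genotypes. Genes of naive and stem-like T cells (8) were positive in 7 of 8 between genotypes in sorted leukocytes, with a median of 0.52, the highest of the T cell lists; Tcf7, a transcription factor of that state, differed by 0.66 (adjusted p = 0.466). Ccr7 and Il7r, which guide and maintain naive T cells, differed by 0.23 and 0.34. B cells also express several of these genes, and the B cell list (8 genes) was positive in 8 of 8 with a median of 0.59; its part was not tested.

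Downstream of Ifng, 12 genes of the interferon gamma receptor and its targets had a median of −0.13 between genotypes in sorted leukocytes and −0.02 in bulk. Cxcl9, a chemokine induced by interferon gamma, had 624 ± 197 CPM in sorted IL33KO and 693 ± 132 CPM in sorted WT libraries (log2 −0.14). Gbp2, an interferon-induced GTPase, had 696 ± 139 CPM in sorted IL33KO and 797 ± 203 CPM in sorted WT libraries. Irf1, a transcription factor that carries the signal to target genes, differed by −0.30. Of the 12, 5 were called higher and 1 (Ido1) lower in sorted than in bulk IL33KO material, and 8 higher and 1 (Ido1) lower in WT. Of 13 genes for cytokines that induce effector genes and their receptors, 9 were called higher and 2, the interleukin 18 receptor chains Il18r1 and Il18rap, lower in sorted than in bulk material in each genotype.

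The granule release machinery (7 genes tested) was called higher in sorted leukocytes for 7 of 7 in both genotypes, by less than most members, with medians of 0.79 in IL33KO and 0.88 in WT. Rab27a, a GTPase that docks granules, rose by 1.50 in sorted IL33KO and 0.88 in sorted WT leukocytes relative to bulk. CD4 and regulatory T cell genes (8) had medians of 2.85 in IL33KO and 3.30 in WT, with Ctla4 at 4.76 in IL33KO and 5.28 in WT. Cells that share a marker with the members were present too: type 1 dendritic cell genes (6) summed to 337 to 438 CPM in sorted IL33KO and 307 to 454 CPM in sorted WT libraries, and gamma delta T cell genes (5) to 26.4 to 62.2 CPM in sorted IL33KO and 30.4 to 56.2 CPM in sorted WT libraries. In sorted leukocytes the remaining lists had median log2 differences by genotype of 0.21 for neutrophils, 0.33 for mast cells and basophils, 0.07 for plasmacytoid dendritic cells, 0.03 for fibroblasts, 0.16 for tumour epithelium, 0.37 for endothelium and 2.09 for acinar cells, each with 0 genes called.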

How the data were processed

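RNA-seq of 20 libraries, 5 per group, was grouped by genotype and material from the sample titles. The authors deposited raw counts per gene from HTSeq, without normalization; per the submitters' processing notes, Picard, HTSeq and DESeq were used with the mm10 build, versions not given, and neither the aligner nor the strand setting is given in the sources used here. Per the labels' protocols, libraries came from a stranded poly(A) mRNA kit. The 5 summary rows of the table (26.1 to 40.5% of its reads) were left out of library sizes and tests. A second deposited table, of scaled counts, was not used. No library was a duplicate of another in its group, the smallest chi-square per gene for any pair of replicates being 18.3. The check covered pairs of replicates only.

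CPM (counts per M counts in genes) used library sizes scaled by TMM in edgeR 4.0.16 (R 4.3.3; factors 0.762 to 1.25), and log2 CPM added a prior count of 2. Levels per kilobase divide by merged exon length; 46488 of 46983 gene IDs matched GENCODE M21. Tests were edgeR's robust quasi-likelihood test after filterByExpr, two-sided, adjusted over all genes tested (Benjamini-Hochberg, threshold 0.05). Genotypes were compared within the 10 sorted and the 10 bulk libraries, and sorted against bulk and the interaction in 1 fit of 20. Ratios used exact permutation over 252 assignments. The alternatives were DESeq2 1.42.0, limma 3.58.1 voom with quality weights, RLE size factors, no filter on low counts, the replicate number as a block, covariates for T cell or leukocyte content, 1 fit of all 20 libraries, another prior count, and leaving out libraries. The fits were tested on simulated data.

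The 10 genes and the 22 lists were chosen with earlier results of these data known, and so was the rule for named genes: all 10 members, Il33, the genes of each list called between genotypes and the 4 with the highest mean in sorted libraries, and the 5 most similar genes in each material. Some genes that this rule names are not reported here. Lists of other cell types are given by their summed level.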

Additional observations from a re-analysis of the deposited data

Results flagged for a closer look

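In 3 of the 40 groups of 5 values (10 genes in 4 groups), 1 library lay far from the other 4 by Dixon's criterion. It was applied to CPM without a log. Chance meets it in about 1 in 20 groups of normally distributed values, and whether that rate holds for these CPM was not tested. All 3 were granzyme values in bulk tumours numbered 5. Gzma was at 106 CPM in bulk IL33KO 5, against 5.17 to 33.01 CPM in the other 4 bulk IL33KO tumours. Gzma was also at 147 CPM in bulk WT 5, against 14.07 to 47.9 CPM in the other 4 bulk WT tumours. Gzmb was at 83.5 CPM in bulk WT 5, against 4.63 to 21.9 CPM in the other 4. Both tumours were also among the 3 highest of the 10 bulk libraries for all 10 genes. Acinar transcripts summed to 174 CPM in bulk IL33KO 5 and 9730 CPM in bulk WT 5, and their part in these values was not tested.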

How the results depend on the processing

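In the genotype comparison of sorted leukocytes, 0 of the 10 genes were called under every alternative run, while the count over all genes moved from 2 to 566 with DESeq2 (172 higher, 394 lower), 400 with voom, 9 with the leukocyte list as covariate, 1 with Cd3 genes as covariate, 1 with the replicate number as a block, and 1 to 3 on leaving out 1 library (3 without sorted IL33KO 3, 1 without any other). In bulk tumours the count of the 10 was 0 except with voom (5), and over all genes it was 0 in edgeR, 50 with DESeq2, 3371 with voom and 0 to 19 on leaving out 1 library, 19 being without bulk WT 5. The interaction gave 0 of the 10 in every run, and over all genes 4 with DESeq2, 1 with RLE size factors, 3406 with voom and 0 to 27 on leaving out 1 library, 27 being without bulk WT 5. The cause was not tested. The sorted log2 ratio of Eomes to Tbx21 (IL33KO minus WT) was 0.58 to 0.91 on leaving out 1 library, 0.91 being without sorted WT 2 and again without sorted WT 4.

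The replicate numbers were not taken to pair libraries, since no label says what they share and not every pair correlated above 0.1, although 4 of 5 did in bulk and 3 of 5 in sorted libraries, where 1 of 5 and 3 of 5 matched best with their own number. The correlation of their deviations from the group means was −0.12 to 0.59 in bulk, −0.19 to 0.34 in sorted, −0.26 to 0.30 between sorted and bulk IL33KO and −0.15 to 0.17 between sorted and bulk WT. With the block, the Eomes to Tbx21 ratio, sorted minus bulk, was −1.73 in IL33KO and −3.17 in WT, each with an exact sign-flip p of 0.0625, the smallest that 5 pairs allow. The block ended the call of Eomes between sorted and bulk WT and no other call of the 10. At this depth every member had counts in every library.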
